A study of Homo sapiens with 18 samples.

Results

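The clustered protocadherins are a family of cell-surface adhesion proteins whose genes stand side by side on human chromosome 5. Members were taken by symbol, as genes of chromosome 5 whose name starts with PCDHA, PCDHB or PCDHG followed by a letter or a number, with pseudogenes left out. Of 60 matching symbols, 7 were left out, 6 as pseudogenes and PCDHB1-AS1 as an antisense lncRNA. The 53 members, of 60603 genes in each table, fall into 15 alpha, 16 beta and 22 gamma genes. All are annotated on the plus strand in hg38, with the alpha cluster at chr5:140786136-141012347, the beta cluster at chr5:141051135-141249365 and the gamma cluster at chr5:141330571-141512981.

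The study sequenced poly(A) RNA of MDA-MB-231, an established triple-negative breast adenocarcinoma line, to ask how ZMYND8, a chromatin reader protein, alters the response to the anthracycline doxorubicin. There are 18 libraries in 9 conditions, 2 per condition, described as biological replicates. The inducible system is a pair of MDA-MB-231 lines, each carrying a lentiviral pInducer20 vector under G418 selection, from which 250 ng/mL doxycycline induces GFP (called GFP cells here) or Flag-ZMYND8 (ZMYND8 cells). Each line was sequenced untreated and after a 6 h or 48 h exposure to doxorubicin at 0.6 µM, with doxycycline kept in the medium during the drug treatment. The same untreated condition serves both times, so doxorubicin and time under doxycycline cannot be fully told apart. As there is only 1 line per construct, the effect of ZMYND8 and any other difference between the lines cannot be told apart. The transient system holds a control whose treatment is labelled "Untreated" (the protocol names an empty vector and vehicle), a control given the same dose of doxorubicin over 48 h, and cells with the label of a transient Flag-ZMYND8 transfection and that doxorubicin treatment. No transient library carries ZMYND8 without doxorubicin.

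Each protocadherin gene of the alpha and gamma clusters has its own promoter and a large first exon, which encodes the extracellular cadherin domains, and this exon is spliced to constant exons that the whole cluster shares. Beta genes have a single coding exon and no constant exons. In neurons each cell expresses its own combination of these genes, chosen through CTCF and cohesin, and matching combinations recognise each other on neighbouring membranes. The C-type genes at the end of the alpha and gamma clusters (PCDHAC1, PCDHAC2, PCDHGC3, PCDHGC4 and PCDHGC5) are used more widely and not chosen in the same way. In epithelial tumours the locus is known as a region that is often silenced by DNA methylation.

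The promoters of the family carry a short element known as the CGCT box, printed here because it is the feature of the sequence that members of all 3 clusters share. RefSeq promoter sequences (GRCh38.p14, 250 bases before to 50 bases after the start) were matched by symbol for 47 of the 53 members, and PCDHA3, PCDHA13, PCDHB6, PCDHB11, PCDHGA12 and PCDHGC5 had no entry. The 47 members had 52 entries, and for each member the entry with the lowest coordinate was used. The 4 letters CGCT, read on the gene's strand within 110 bases before the start, were found in 43 of the 47 members, 12 of 13 alpha, 12 of 14 beta and 19 of 20 gamma genes, against 27% of 35116 promoters of all genes. Windows of 40 bases around it lie at chr5:140786078-140786117 for PCDHA1, chr5:140834164-140834203 for PCDHA7, chr5:141182302-141182341 for PCDHB16, chr5:141187066-141187105 for PCDHB9, chr5:141192291-141192330 for PCDHB10, chr5:141213857-141213896 for PCDHB13, chr5:141223255-141223294 for PCDHB14, chr5:141350017-141350056 for PCDHGB1, chr5:141354952-141354991 for PCDHGA4, chr5:141412923-141412962 for PCDHGA10 and chr5:141475872-141475911 for PCDHGC3, all on the plus strand. The capitals mark CGCT, and the windows are those of 2 barely detected alpha genes and of some of the beta and gamma genes named in the results. PCDHGB2, which had no forward CGCT in that stretch, and PCDHB11, which had no entry, are among the leading genes without a window.
PCDHA1: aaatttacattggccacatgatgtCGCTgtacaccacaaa
PCDHA7: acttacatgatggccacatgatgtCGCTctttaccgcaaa
PCDHB16: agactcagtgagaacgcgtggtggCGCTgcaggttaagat
PCDHB9: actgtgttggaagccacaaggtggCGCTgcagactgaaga
PCDHB10: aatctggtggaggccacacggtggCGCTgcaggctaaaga
PCDHB13: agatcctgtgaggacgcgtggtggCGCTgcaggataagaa
PCDHB14: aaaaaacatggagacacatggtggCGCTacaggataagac
PCDHGB1: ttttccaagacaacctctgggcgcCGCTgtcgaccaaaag
PCDHGA4: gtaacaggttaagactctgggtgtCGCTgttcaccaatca
PCDHGA10: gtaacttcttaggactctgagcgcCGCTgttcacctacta
PCDHGC3: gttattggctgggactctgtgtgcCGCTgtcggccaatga

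The letters next to CGCT differ between the clusters. The beta windows read GGTGGCGCT, which was found on either strand in 13 of 14 beta promoters (PCDHB1 is the exception), in 0 alpha and 0 gamma promoters and in 0.501% of all promoters. The alpha form GATGTCGCT was found in 9 of 13 alpha promoters and 0.105% of all, and the gamma form CGCCGCTGT in 9 of 20 gamma promoters and 0.604% of all. Each of these motifs contains CGCT, and both strands were searched. In the 43 promoters with the forward letters, CGCT begins 38 to 95 bases before the RefSeq start used there, with a median of 60, and that start can differ from the gene start of the counting annotation. PCDHA9, PCDHB5, PCDHB8 and PCDHGB2 have no forward CGCT in that stretch. Over the whole promoter sequence and on either strand, CGCT was found in 14 of 14 beta and 20 of 20 gamma promoters. The sequence used for PCDHGB2, chr5:141359886-141360185, spans the gene's start in the counting annotation, 141360042. That used for PCDHA9, chr5:140848132-140848431, lies within the annotated gene, so for both the stretch searched lies at least partly inside the gene. A match is only a match of letters.

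Library totals were 18300628 to 23724398 counts in the inducible system and 5729294 to 24713822 in the transient system, where only the second doxorubicin library was above 5972396. ZMYND8 itself was measured at 208.55 CPM (depth-scaled counts on the TMM scale) ± 0.779 (SD, n = 2) in untreated GFP cells and at 924 ± 3.75 in untreated ZMYND8 cells. In the transient system it was at 208.8 ± 14.5 CPM in the control, 152 ± 42.0 after doxorubicin and 142 ± 24.7 in the libraries that carry the ZMYND8 label, so these do not show the raised level their label implies. Replicate 2 of doxorubicin and replicate 2 of the labelled ZMYND8 cells with doxorubicin were far closer to each other than any other pair of transient libraries, with a chi-square per degree of freedom of 1.386, against 9.706 to 55.62 for the other 14 pairs. Exons on opposite strands were counted nearly apart in the inducible libraries (antisense over sense density 0.0711 to 0.100) and not in the transient ones (1.434 to 1.617), so the transient values of the 9 alpha, 9 beta and 1 gamma genes with an opposite-strand gene can hold its reads. Epithelial KRT8 and mesenchymal VIM and CD44 were abundant and ESR1, PGR and FOXA1 stayed under 1.15 CPM, as the line is known for. The list of 5 hormone receptor and luminal genes also holds ERBB2 and GATA3. It summed to 122 to 127 CPM in untreated GFP cells.

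Counting also sets what can be seen of each member. A read pair that overlaps exons of several genes was not counted, and 2866 exon bases lie in all 15 alpha genes and 2177 in all 22 gamma genes. Reads from these constant exons are therefore missing, and the share of a member's exon bases that no other gene of its strand covers had a median of 53.2% in the alpha and 56.1% in the gamma cluster, against 100% in the beta cluster. Levels of different members are for this reason compared per kb of unshared exon, and shares of a cluster's counts reflect the genes' lengths too. Among the 53 members, 26 passed the low-count filter in the inducible system (13 beta and 13 gamma) and 18 in the transient system (8 beta and 10 gamma). No alpha gene passed it. A gene can pass through its highest condition alone, so counts of falls among the tested members describe those genes and not the family, and only 8 of the 26 had at least 10 counts in every inducible library. The members left out were all low, with at most 6 counts (15 alpha genes), 8 counts (3 beta genes) and 13 counts (9 gamma genes) in any inducible library.

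The beta and gamma clusters were expressed in this epithelial tumour line and the alpha cluster was not. In untreated GFP cells the 16 beta genes summed to 71.3 and 72.9 CPM and the 22 gamma genes to 66.2 and 63.8 CPM in the 2 libraries. The 15 alpha genes together gave 3 and 2 counts in the same libraries, or 0.152 and 0.105 CPM. In the inducible libraries most of each sum came from few genes. A contiguous run of 7 beta genes, PCDHB16, PCDHB9, PCDHB10, PCDHB11, PCDHB12, PCDHB13 and PCDHB14, held 87.3 to 91.1% of the beta counts in the 6 inducible conditions. PCDHGB1, PCDHGB2 and PCDHGC3 held 60.3 to 77.5% of the gamma counts. In the 3 transient conditions the 7 beta genes held 88.5 to 91.2% of their cluster and the 3 gamma genes 44.9 to 54.8%.

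**Figure D1:**
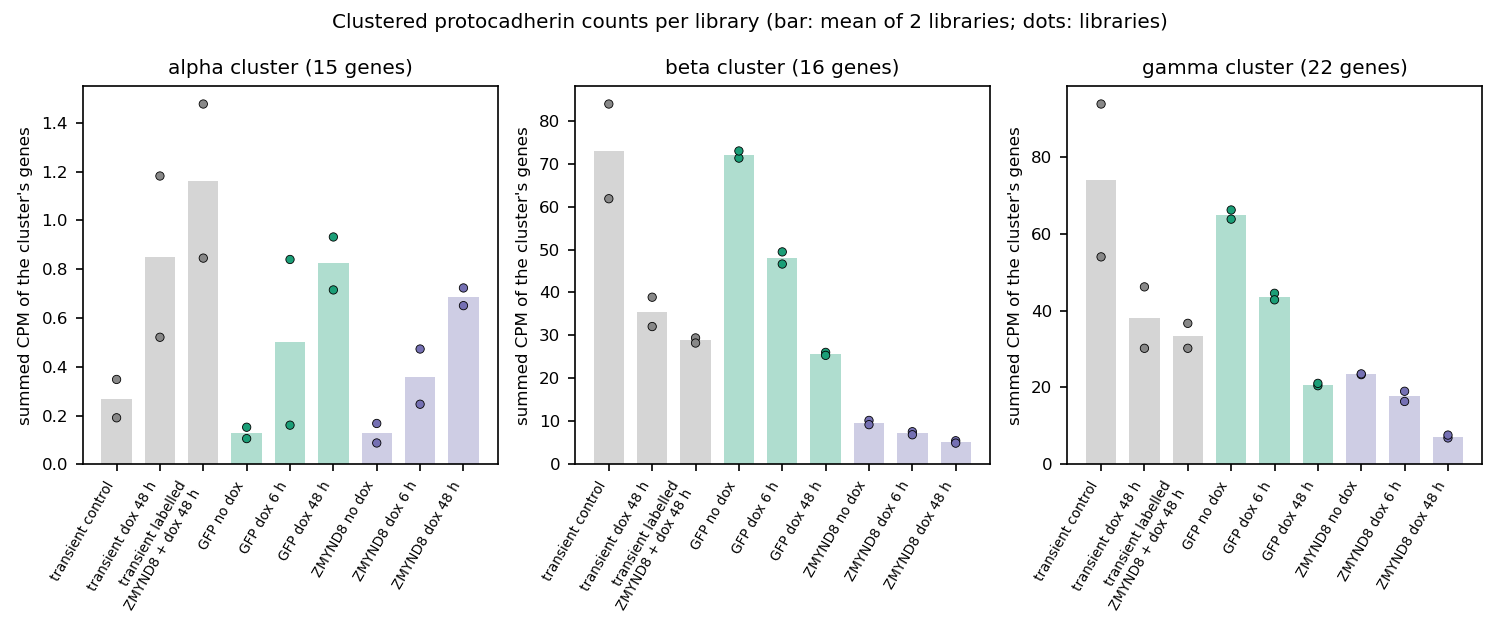
Summed CPM of the members of each cluster (vertical axes, a different range in each panel) in the 9 conditions, with bars at the mean of 2 libraries and dots at the libraries. Beta and gamma sums are highest in the untreated transient control and untreated GFP cells and lowest in ZMYND8 cells after 48 h of doxorubicin, while the alpha sum reaches at most 1.48 CPM.

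Per kb of unshared exon, PCDHGB2 had the highest level in untreated GFP cells, 9.05 ± 0.691 CPM per kb (SD, n = 2). PCDHGB1 followed at 4.81 ± 0.304 CPM per kb, and both differences to the next gene exceeded the spread of the libraries. The next 4 genes did not differ beyond their spread, namely PCDHGC3 at 3.23 ± 0.0781, PCDHB10 at 3.17 ± 0.0222, PCDHB11 at 3.05 ± 0.660 and PCDHB13 at 2.88 ± 0.512 CPM per kb. PCDHGB2 and PCDHGB1 encode gamma isoforms of the B subfamily, PCDHGC3 is the C-type isoform found outside the nervous system, and the beta genes encode proteins without the constant cytoplasmic part. In untreated ZMYND8 cells PCDHGB2 was again first, at 3.11 ± 0.058 CPM per kb, and PCDHGB1 second, at 1.955 ± 0.388.

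The alpha genes stayed at the edge of detection in every condition. Their summed counts in GFP cells were 3 and 2 untreated, 16 and 3 at 6 h and 21 and 17 at 48 h of doxorubicin. In ZMYND8 cells the sums were 3 and 2, then 5 and 9, then 16 and 17 counts. So the libraries at 48 h held more alpha counts than the untreated ones of the same line, with no overlap, but with at most 6 counts for a single gene in a library. PCDHA1 had 0 to 6 counts and PCDHA7 0 to 5 counts over the 12 inducible libraries. The C-type PCDHAC1 had 0 counts in all 4 untreated libraries, 3 and 2 counts in GFP cells and 3 and 4 in ZMYND8 cells at 48 h. PCDHAC2, the other alpha C-type gene, had 0 counts in 10 of 12 inducible libraries, with 2 and 3 counts in the others. In the transient libraries, whose counts do not separate strands, the alpha sums were 1 and 2 counts in the control, 3 and 31 after doxorubicin (31 in the library of 24713822 counts) and 5 and 9 in the labelled ZMYND8 libraries. A count of 0 allows up to 3 counts, and no alpha gene was tested.

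Without doxorubicin, the comparison of the lines asks what differs where ZMYND8 is induced and no drug was given. Of the 26 tested members 23 were lower in ZMYND8 cells and 0 higher at an adjusted p of at most 0.05, against 29.5% of 18801 tested genes called lower and 28.7% called higher. These are 13 of 13 tested beta genes and 10 of 13 tested gamma genes. The median log2 fold change was -2.72 over the tested beta genes and -1.54 over the tested gamma genes, with 0 over all genes. The beta sum was at 13.5% of its level in untreated GFP cells and the gamma sum at 36.1%. In bulk RNA, fewer cells that express a gene and less RNA per cell cannot be told apart.

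The beta genes with the largest fitted falls, PCDHB8, PCDHB16, PCDHB9, PCDHB10 and PCDHB11, lie next to each other. PCDHB15, the last gene of the cluster, had almost the same value as PCDHB11 (-2.86 and -2.87), so where the list ends decides this. PCDHB9 gave 9.12 and 8.54 CPM in GFP cells and 0.782 and 0.525 CPM in ZMYND8 cells. This is a log2 difference of -3.77 (SE 0.255, adjusted p = 6.56e-13), or 13.7-fold lower. PCDHB16, its neighbour along the chromosome, gave 6.84 and 7.28 CPM against 0.726 and 0.788, a log2 difference of -3.21 (SE 0.287, adjusted p = 2.01e-10). These adjacent genes had levels under 1 CPM in every library of untreated ZMYND8 cells. PCDHB10 gave 10.4 and 10.5 CPM against 1.62 and 0.919, a log2 difference of -3.07 (SE 0.234, adjusted p = 7.69e-12). PCDHB11 gave 10.8 and 14.8 CPM against 1.68 and 1.79, 7.33-fold lower (log2 fold change -2.87, SE 0.214, adjusted p = 4.98e-12). PCDHB13 gave 16.4 and 12.8 CPM against 2.51 and 1.97, 6.57-fold lower (log2 fold change -2.72, SE 0.182, adjusted p = 5.44e-13). PCDHB8 had the largest fitted fall, on few counts, with 48 and 46 counts in GFP cells and 1 and 2 counts in ZMYND8 cells. The ratio of its summed counts was 33.0 with a 95% counting interval of 10.95 to 163 (adjusted p = 2e-08). The other 7 tested beta genes, PCDHB2, PCDHB5, PCDHB6, PCDHB7, PCDHB12, PCDHB14 and PCDHB15, had log2 fold changes from -2.86 (PCDHB15) to -2.13 (PCDHB12), each called.

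The gamma genes that led in GFP cells were lower too. PCDHGB2 gave 22.2 and 24.7 CPM in GFP cells and 7.93 and 8.14 in ZMYND8 cells, 2.91-fold lower (log2 fold change -1.54, SE 0.113, adjusted p = 3.74e-12). PCDHGB1 gave 11.9 and 13.03 CPM against 4.36 and 5.78, 2.44-fold lower (log2 fold change -1.29, SE 0.163, adjusted p = 1.2e-07). The tested C-type genes, PCDHGC3 and PCDHGC5, had the largest fitted falls of the tested gamma genes, though PCDHGA4 (-2.08) was close to PCDHGC3 (-2.28). The C-type gene PCDHGC4 was not tested. PCDHGC3 gave 10.7 and 10.3 CPM against 1.56 and 2.67, 4.85-fold lower (log2 fold change -2.28, SE 0.203, adjusted p = 1.8e-10). PCDHGC5 gave 1.32 and 0.844 CPM against 0.168 and 0.131, a log2 difference of -2.83 (SE 0.621, adjusted p = 0.000302). The other 6 gamma genes called, PCDHGA1, PCDHGA4, PCDHGA5, PCDHGA6, PCDHGA10 and PCDHGB3, had values from -2.08 (PCDHGA4) to -1.05 (PCDHGA5). The 3 gamma genes that did not pass were PCDHGA7 (log2 fold change 0.07, SE 0.602), PCDHGB7 (-0.39, SE 0.483) and PCDHGB4 (-1.69, SE 0.834, adjusted p = 0.0846). Their levels were at most 1.27 CPM in any library of either untreated line.

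The genes around the clusters moved in both directions. Of 42 other genes with a symbol within 500 kb of the clusters 27 were tested, and 7 were higher and 9 lower in untreated ZMYND8 cells, with a median log2 fold change of -0.12. These counts are near the shares of all tested genes, 28.7% higher and 29.5% lower. TAF7, a general transcription factor gene that lies between the beta and gamma clusters, had a log2 difference of -0.30 (SE 0.0424, adjusted p = 8e-07). The largest falls were those of CD14, a monocyte receptor gene upstream of the alpha cluster, with a log2 difference of -3.13 (SE 0.144, adjusted p = 2.06e-16), of ANKHD1-DT (-1.47, SE 0.530, adjusted p = 0.0194) and of ARAP3 downstream of the gamma cluster (-1.03, SE 0.0725, adjusted p = 1.57e-12).

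**Figure D2:**
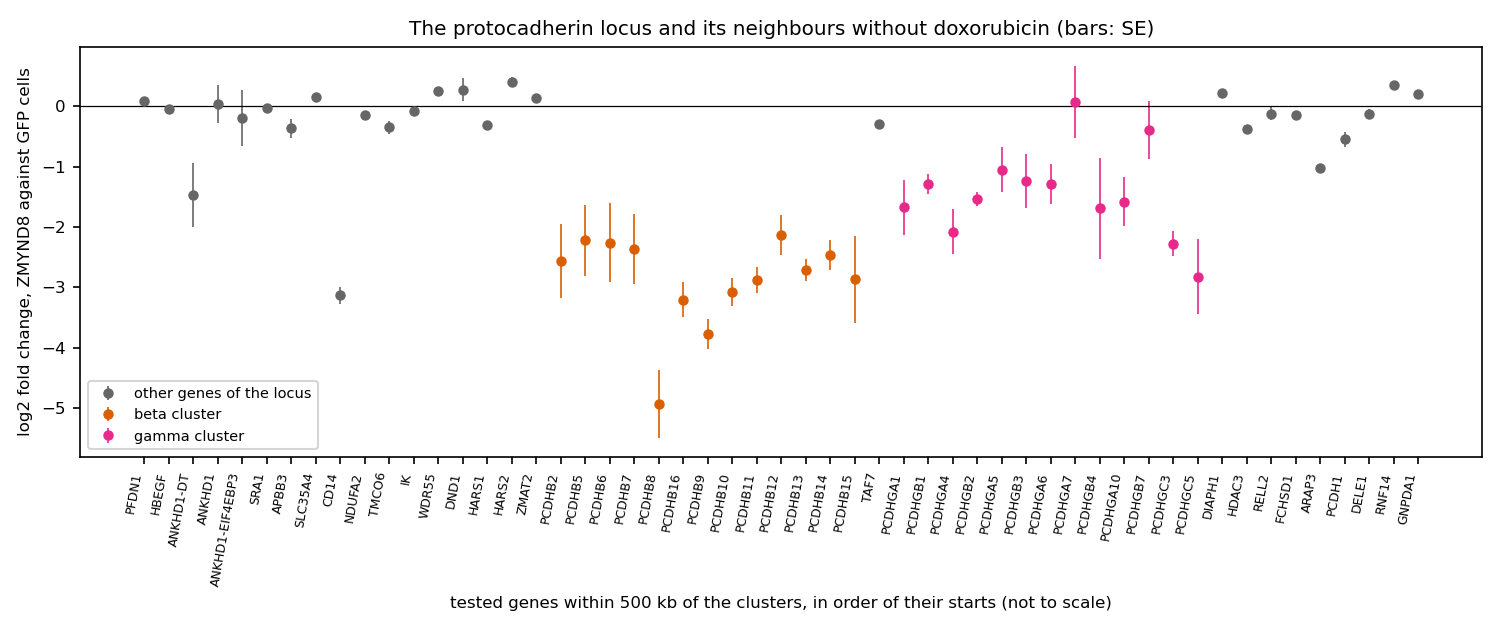
Fitted log2 fold change of untreated ZMYND8 against untreated GFP cells (vertical axis, bars are SE) for the tested genes of the locus, in the order of their starts along chromosome 5 (horizontal axis, not to scale). The beta genes lie between -4.94 and -2.13, the gamma genes between -2.83 and 0.07, and the 27 other genes have a median of -0.12 with CD14 at -3.13.

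The beta and gamma clusters were also lower after doxorubicin in GFP cells, the line without added ZMYND8. After 48 h 23 of 26 tested members were lower and 0 higher, against 31.8% of tested genes called lower and 32.4% higher. The comparison shares its untreated libraries with that of the untreated lines. The calls hold 12 of 13 beta and 11 of 13 gamma genes, with medians of -1.57 and -1.70 on the log2 scale and 0.03 over all genes. The beta sum went from 71.3 and 72.9 CPM to 26.1 and 25.4 CPM, or 35.7% of the untreated mean. The gamma sum went from 66.2 and 63.8 CPM to 20.5 and 21.1 CPM, or 31.9%.

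PCDHGB2 was at 5.73 and 5.22 CPM after 48 h, 4.28-fold lower than without doxorubicin (log2 fold change -2.10, SE 0.117, adjusted p = 9.55e-15). PCDHGB1 was at 3.28 and 2.69 CPM, 4.17-fold lower (log2 fold change -2.06, SE 0.172, adjusted p = 4.07e-11). Both gamma genes thus dropped below every untreated library of either line. PCDHB11 was at 3.46 and 2.40 CPM, 4.37-fold lower (log2 fold change -2.13, SE 0.194, adjusted p = 2.36e-10). PCDHB10 was at 4.39 and 3.41 CPM, 2.68-fold lower (adjusted p = 3.37e-07), and PCDHB13 at 5.90 and 5.89 CPM, 2.48-fold lower (adjusted p = 3.35e-08). PCDHB9 fell least among the leading beta genes, from 9.12 and 8.54 to 4.71 and 4.63 CPM, a log2 difference of -0.92 (SE 0.186, adjusted p = 0.000105). Among the called members the largest fitted falls were in genes with few counts. PCDHGA10, an A-type gamma gene, had 39 and 33 counts without and 1 and 3 counts with 48 h of doxorubicin, a ratio of 21.5 with a counting interval of 8.06 to 81.2 (adjusted p = 1.3e-07). PCDHB5 had 24 and 17 counts against 2 and 3, a ratio of 9.81 (3.88 to 31.8, adjusted p = 9.32e-05). PCDHGA4 gave 4.41 and 3.16 CPM against 0.488 and 0.547, 7.25-fold lower (adjusted p = 5.75e-07). The 3 tested members that did not pass at 48 h were PCDHB2 (log2 fold change -0.98, SE 0.491, adjusted p = 0.0819), PCDHGB4 (-1.87, SE 0.829, adjusted p = 0.0507) and PCDHGC5.

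**Figure D3:**
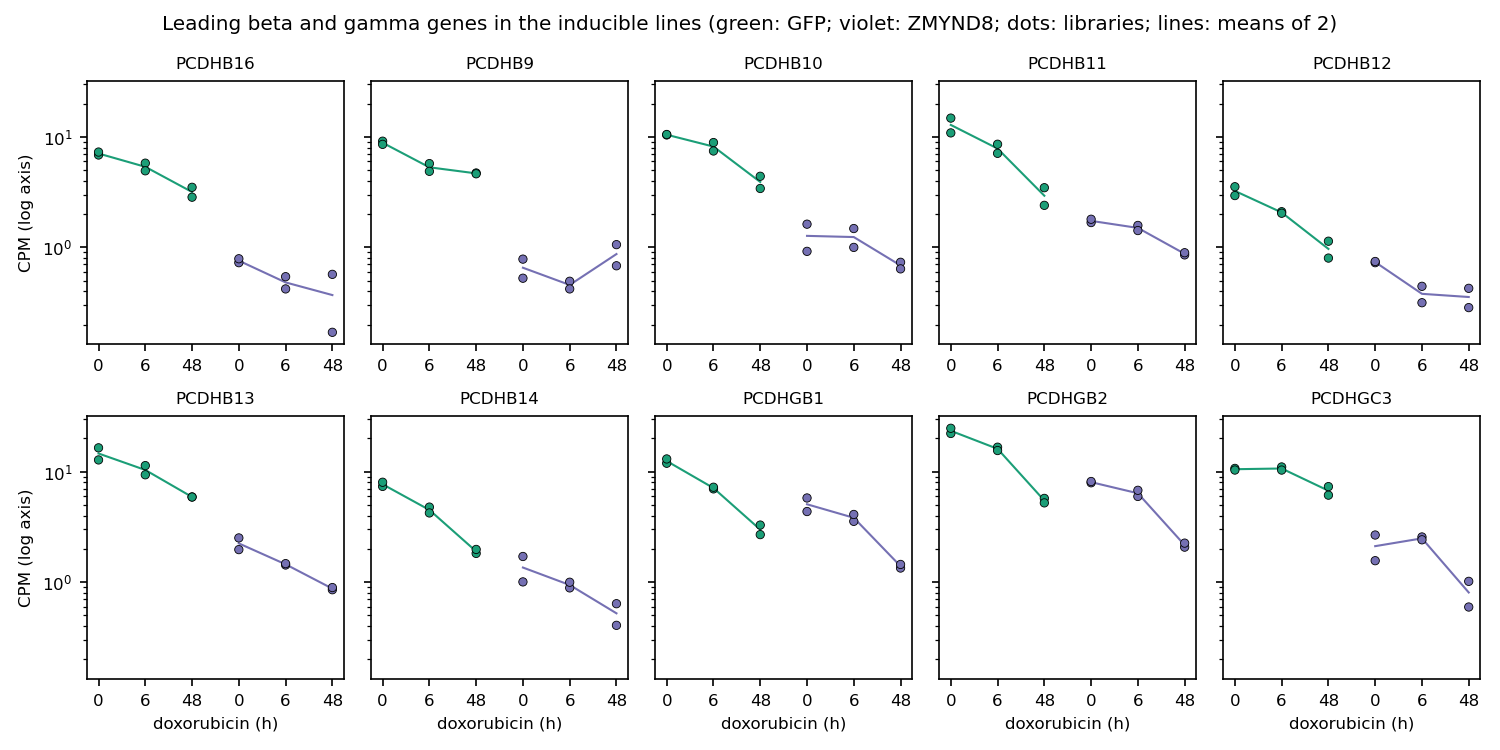
CPM on a log axis of the 10 leading beta and gamma genes in GFP cells (green) and ZMYND8 cells (violet) at 0, 6 and 48 h of doxorubicin, with dots at the libraries and lines through the means of 2. Every gene has a lower mean in ZMYND8 than in GFP cells at each time, PCDHB9 in ZMYND8 cells has no fall at 48 h (0.782 and 0.525 CPM untreated, 1.06 and 0.681 CPM at 48 h), and PCDHGC3 in GFP cells keeps its level at 6 h.

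At 6 h part of the fall was in place. In GFP cells 12 of 26 tested members were lower, 5 beta and 7 gamma genes, and 0 higher, against 25.8% of tested genes called lower and 22.1% higher, and without the first untreated GFP library 6 were. DESeq2 called 4. The beta sum was at 49.4 and 46.6 CPM, 66.6% of untreated, and the gamma sum at 44.5 and 42.8 CPM, 67.2% of untreated. PCDHGB1 was at 6.98 and 7.23 CPM (log2 fold change -0.81, SE 0.158, adjusted p = 9.89e-05) and PCDHGB2 at 16.6 and 15.5 CPM (-0.54, SE 0.105, adjusted p = 9.02e-05). Each of these 6 h values lay between the untreated and the 48 h libraries. PCDHB11 was at 7.09 and 8.56 CPM (log2 fold change -0.71, SE 0.177, adjusted p = 0.00144) and PCDHB9 at 5.72 and 4.87 CPM (-0.74, SE 0.187, adjusted p = 0.00175). Among the called members the largest fitted falls were those of PCDHGA10 (1.98 and 1.74 to 0.682 and 0.589 CPM, adjusted p = 0.00261) and PCDHGA4 (4.41 and 3.16 to 1.42 and 1.82 CPM, adjusted p = 0.00467), followed by PCDHGB3 (log2 fold change -1.13, adjusted p = 0.0382), PCDHGA5 (-1.11, adjusted p = 0.0157) and PCDHB8 (-1.09, adjusted p = 0.0133). PCDHGC3 was at 11.02 and 10.33 CPM against 10.7 and 10.3 without drug (log2 fold change 0.02, SE 0.166, adjusted p = 0.945).

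In ZMYND8 cells the levels were already low without doxorubicin. After 48 h 13 of 26 tested members were lower, 6 beta and 7 gamma genes, and 0 higher, against 30.8% of tested genes called lower and 31.6% higher. The medians on the log2 scale were -0.99 for the tested beta and -1.48 for the tested gamma genes, with 0.05 over all genes. The beta sum went from 10.2 and 9.23 CPM to 5.49 and 4.93 CPM, 53.6% of untreated ZMYND8 cells, and the gamma sum from 23.3 and 23.5 CPM to 6.87 and 7.61 CPM, 30.9%. The 13 genes called here were also called in GFP cells at 48 h, which is 56.5% of the 23 called there. Over all genes, 77.4% of those called lower in ZMYND8 cells were also called lower in GFP cells, which is 74.8% of the latter. These comparisons share no library.

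PCDHGB2 went from 7.93 and 8.14 to 2.07 and 2.25 CPM, 3.71-fold lower (log2 fold change -1.89, SE 0.154, adjusted p = 2.99e-11). PCDHGB1 went from 4.36 and 5.78 to 1.34 and 1.45 CPM, 3.66-fold lower (log2 fold change -1.87, SE 0.210, adjusted p = 1.39e-08). Of the beta genes, PCDHB13 went from 2.51 and 1.97 to 0.854 and 0.893 CPM (log2 fold change -1.34, SE 0.266, adjusted p = 9.25e-05). PCDHB11 went from 1.68 and 1.79 to 0.854 and 0.893 CPM (log2 fold change -0.99, SE 0.299, adjusted p = 0.00562) and PCDHB14 from 1.01 and 1.71 to 0.407 and 0.638 CPM (-1.40, SE 0.346, adjusted p = 0.000979). PCDHB9 was not among the 11 of 13 tested beta genes with a fitted value below 0 here. It gave 0.782 and 0.525 CPM without and 1.06 and 0.681 CPM with 48 h of doxorubicin, so the libraries overlapped (log2 fold change 0.44, SE 0.345, adjusted p = 0.273). Among low gamma genes, PCDHGB7 went from 16 and 15 counts to 1 and 0, a ratio of 36.6 with a counting interval of 6.10 to 1491 (adjusted p = 4.88e-05), PCDHGA4 from 21 and 15 to 2 and 3 (ratio 8.50, 3.32 to 27.7) and PCDHGA10 from 13 and 12 to 2 and 2 (ratio 7.38, 2.55 to 29.2).

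At 6 h in ZMYND8 cells only 2 of 26 tested members were lower and 0 higher, against 19% of tested genes called lower and 21.8% higher. One was PCDHGB2, at 5.96 and 6.78 CPM (log2 fold change -0.34, SE 0.132, adjusted p = 0.0425). The other was PCDHB6, with 5 and 2 counts without and 0 and 0 counts at 6 h (adjusted p = 0.0285). Its ratio was 2.25 with 3 counts assumed for the 6 h group, and the counting interval starts at 1.39 with no upper end. This count of calls rested on single libraries, being 1 without the first untreated GFP library, either GFP library at 6 h, either GFP library at 48 h or the first untreated ZMYND8 library, and 0 without the first ZMYND8 library at 6 h. The beta sum was at 7.59 and 6.88 CPM, 74.4% of untreated ZMYND8 cells, and the gamma sum at 16.4 and 19.0 CPM, 75.5%.

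**Figure D4:**
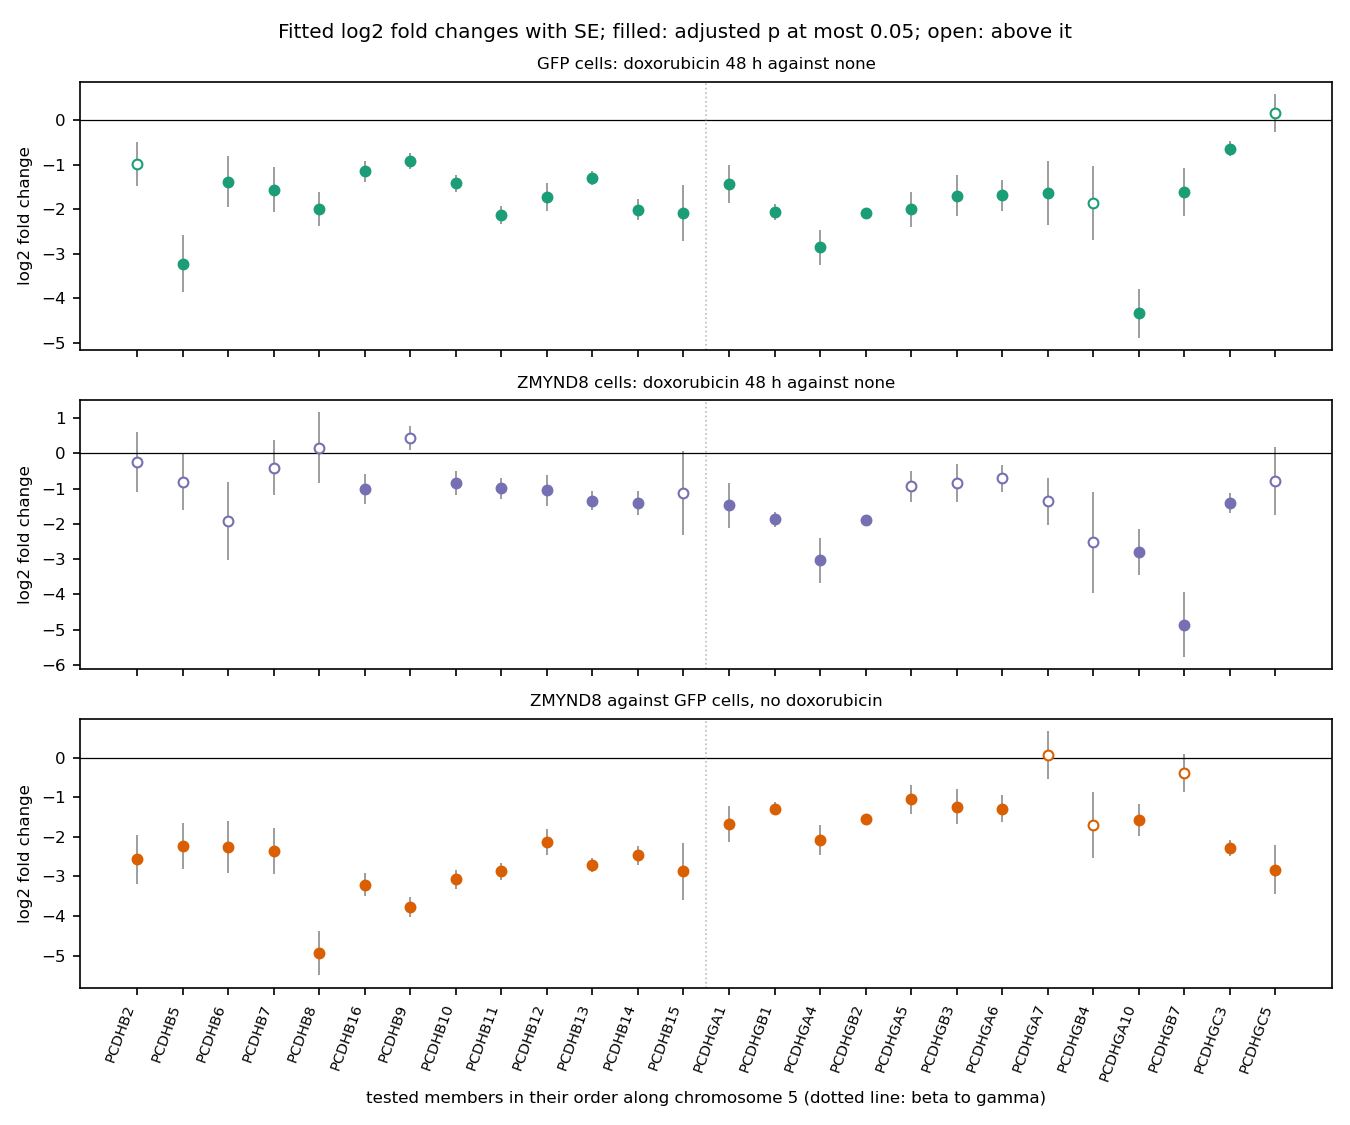
Fitted log2 fold changes (vertical axes, bars are SE) of the 26 tested members in their order along chromosome 5, one panel per comparison, with filled points at an adjusted p of at most 0.05 and open points above it. Filled points number 23 for ZMYND8 against GFP cells without doxorubicin, 23 for 48 h of doxorubicin in GFP cells and 13 for 48 h in ZMYND8 cells, and all of them lie below 0.

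The difference between the lines was also present under doxorubicin. At 6 h 20 of 26 tested members were lower in ZMYND8 than in GFP cells, 12 beta and 8 gamma genes, and 0 higher, against 26.6% of tested genes called lower and 28.9% higher. At 48 h 17 were lower, 10 beta and 7 gamma genes, and 0 higher, against 31.6% lower and 28.4% higher. The median log2 fold change over the tested beta genes was -2.42 at 6 h and -1.91 at 48 h, and over the tested gamma genes -1.14 and -1.34. PCDHB16 gave 5.77 and 4.92 CPM in GFP and 0.542 and 0.420 CPM in ZMYND8 cells at 6 h, and 2.84 and 3.49 against 0.569 and 0.170 CPM at 48 h (log2 fold changes -3.45 and -3.06, adjusted p = 5.07e-10 and 9.48e-09). PCDHB9 gave 5.72 and 4.87 against 0.493 and 0.420 CPM at 6 h (log2 fold change -3.52, SE 0.288, adjusted p = 4.32e-11) and 4.71 and 4.63 against 1.06 and 0.681 CPM at 48 h (-2.41). The low genes PCDHB6 and PCDHGB4 had the same direction on few counts. PCDHB6 had 14 and 20 counts in GFP cells and 0 and 0 in ZMYND8 cells at 6 h. The ratio was 11.8 with 3 counts assumed for the ZMYND8 group, and its counting interval starts at 9.09 with no upper end. At 48 h PCDHB6 had 6 and 9 against 0 and 2 counts (ratio 7.79, counting interval 1.81 to 70.2, adjusted p = 0.014). PCDHGB4 had 1 and 10 counts against 0 and 1 at 6 h, so its libraries overlapped (ratio 11.5, 1.67 to 493, adjusted p = 0.0366).

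The combined effect was tested as the ZMYND8 against GFP difference at 48 h minus the same difference without doxorubicin. Of 26 tested members 2 were called higher and 1 lower, against 12.7% and 15.8% of tested genes, with a median of 0.75 over the tested beta and 0.19 over the tested gamma genes on the log2 scale. PCDHB9 had a value of 1.36 (SE 0.391, adjusted p = 0.00929) and PCDHB11 of 1.14 (SE 0.368, adjusted p = 0.0205), so that the gap between the lines was narrower at 48 h for both. For PCDHGB7 it was -3.24 (SE 1.21, adjusted p = 0.0459), with 15 GFP counts against 1 ZMYND8 count at 48 h (ratio 15.6, counting interval 2.40 to 656) and libraries that overlapped without drug. The calls of all 3 members depended on the first ZMYND8 library at 48 h. Without it the values were 1.01 (PCDHB9), 1.17 (PCDHB11) and -5.37 (PCDHGB7). Without the second ZMYND8 library at 48 h they were 1.64, 1.11 and -2.43. The calls of PCDHB11 and PCDHGB7 also depended on the second untreated GFP library and on the second library of either line at 48 h. That of PCDHGB7 depended further on the first GFP library at 48 h (value without it -3.10) and on the first untreated ZMYND8 library (-3.03). DESeq2 called 0 of the members, and 7056 of all 18801 genes had an unadjusted p under 0.05 in edgeR. For 23 tested members the change of the gap did not pass the test. The beta sum in ZMYND8 cells at 48 h was 7.23% of that in untreated GFP cells and the gamma sum 11.1%.

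PCDHGC3 and PCDHGC5, the tested C-type gamma genes, had smaller fitted changes under doxorubicin in GFP cells than most tested members of their cluster. PCDHGC3 in GFP cells was at 6.13 and 7.32 CPM after 48 h, 1.56-fold lower (log2 fold change -0.64, SE 0.170, adjusted p = 0.00178), beside a median of -1.70 over the tested gamma genes. Its share of the gamma counts was 16.2% without drug, 24.5% at 6 h and 32.4% at 48 h in GFP cells, and 9.0%, 14.1% and 11.1% in ZMYND8 cells. In ZMYND8 cells it went from 1.56 and 2.67 to 1.02 and 0.596 CPM at 48 h (log2 fold change -1.41, SE 0.290, adjusted p = 0.000138). The difference between the lines at 48 h was 8.25-fold (log2 fold change -3.04, SE 0.241, adjusted p = 1.72e-11), and its change from the untreated difference did not pass the test (-0.77, adjusted p = 0.0952). PCDHGC5, an isoform known from brain, did not pass the test in GFP cells, with 1.32 and 0.844 CPM without and 1.29 and 1.14 CPM with 48 h of doxorubicin (log2 fold change 0.16, SE 0.429, adjusted p = 0.765). In ZMYND8 cells PCDHGC5 had 4 and 0 counts at 48 h (0.163 and 0 CPM), a log2 fold change of -3.77 against GFP cells (SE 0.641, adjusted p = 1.18e-05), and at 6 h 1 and 1 counts against 14 and 16 (ratio 15.6, counting interval 3.97 to 135, adjusted p = 0.000221). PCDHGC4 had at most 4 counts in any inducible library, 0 in the 4 GFP libraries at 0 and 6 h, and was not tested.

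In the transient system few members were called. The beta sum was 61.8 and 83.9 CPM in the control, 38.9 and 32.1 CPM after 48 h of doxorubicin and 29.4 and 28.2 CPM in the labelled ZMYND8 libraries. The gamma sum was 54.0 and 93.8, then 46.2 and 30.2, then 36.7 and 30.2 CPM. The second control library held the higher sum of the pair in both clusters. Fitted log2 values of the 18 tested members ran from -1.94 to -0.27 for doxorubicin and from -2.04 to -0.18 for the labelled ZMYND8 libraries. Both comparisons use the same 2 control libraries. The second doxorubicin and second labelled libraries were also far closer to each other than any other transient pair (chi-square per degree of freedom 1.386). The 2 comparisons are therefore not known to be independent on the treated side either.

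With doxorubicin 2 of 18 tested members were lower and 0 higher, against 2.15% of 15697 tested genes called lower and 2.98% higher. PCDHB14 gave 15.1 and 14.8 CPM in the control and 7.12 and 5.03 CPM with doxorubicin (log2 fold change -1.34, SE 0.304, adjusted p = 0.0331). PCDHGA6, an A-type gamma gene, gave 9.54 and 14.96 against 4.69 and 3.70 CPM (log2 fold change -1.58, SE 0.366, adjusted p = 0.0353). Both were also lower in GFP cells at 48 h. PCDHGB2, the leading gene of the inducible lines, gave 12.6 and 23.3 CPM in the control and 15.3 and 8.20 CPM with doxorubicin, so its libraries overlapped. The count of calls was 0 without the second control library or the second doxorubicin library and 1 without the first doxorubicin library.

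The libraries labelled ZMYND8 plus doxorubicin had 5 members lower than the control and 0 higher, against 2.97% of tested genes called lower and 3.85% higher. PCDHB11 gave 10.7 and 14.3 CPM in the control and 3.72 and 4.10 CPM in the labelled libraries (log2 fold change -1.67, SE 0.339, adjusted p = 0.0174). PCDHB14 gave 5.07 and 4.76 CPM in the labelled libraries (-1.60, SE 0.319, adjusted p = 0.0163) and PCDHB10 3.04 and 3.61 against 7.82 and 14.6 CPM (-1.75, SE 0.415, adjusted p = 0.031). PCDHB12 gave 1.18 and 1.48 against 4.58 and 6.26 CPM (-2.02, SE 0.479, adjusted p = 0.0313), and PCDHGA6 3.89 and 2.46 CPM (-1.95, SE 0.394, adjusted p = 0.0171). The count was 1 without the second control library and 0 without either labelled library. Between the labelled libraries and doxorubicin alone 0 members and 0 of all tested genes were called by edgeR, 0% of 15697, with 54 genes at an unadjusted p under 0.05, and the cluster medians were -0.26 (beta) and -0.13 (gamma). Because ZMYND8 was not raised in the labelled libraries, these values concern the labels and not a measured rise of ZMYND8.

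**Figure D5:**
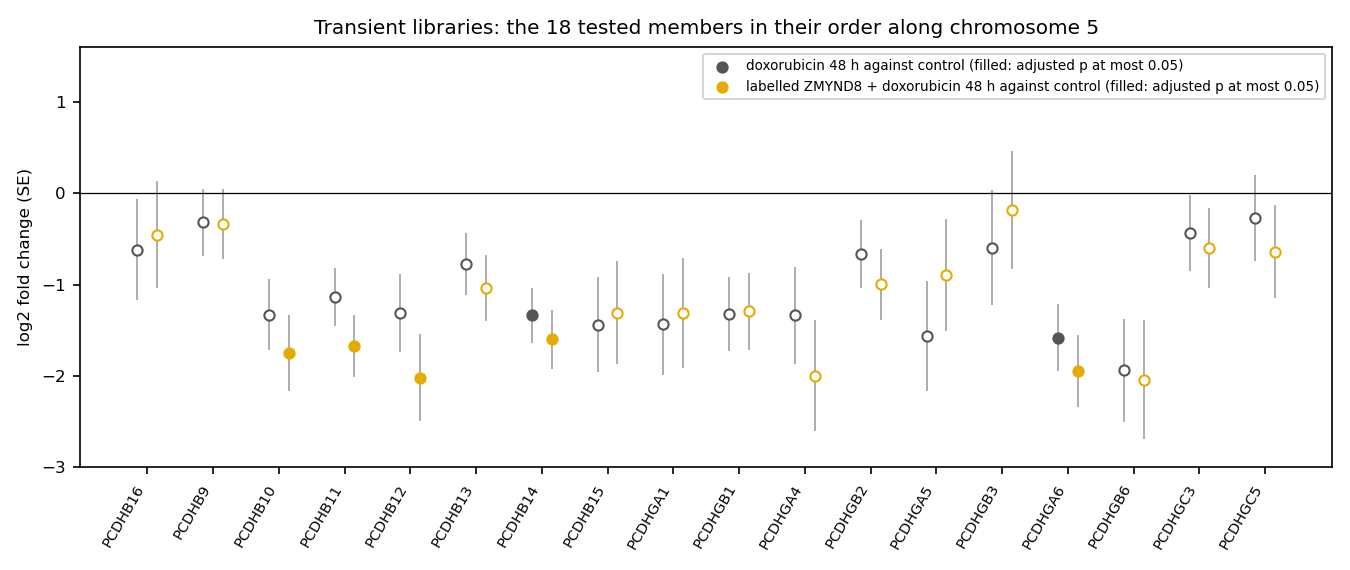
Fitted log2 fold changes (vertical axis, bars are SE) against the control of the 18 tested members in the transient libraries, for doxorubicin and for the libraries labelled ZMYND8 plus doxorubicin, in their order along chromosome 5, with filled points at an adjusted p of at most 0.05. Points lie between -2.04 and -0.18, 2 and 5 of them are filled, and both series share the control libraries.

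The study's own criterion, an unadjusted p of 0.05 or less together with a fold limit (on the log2 scale, 1 for transient and 1.5 for inducible libraries), weighs large changes more. By it 19 of 26 tested members were lower and 0 higher in untreated ZMYND8 than in GFP cells, against 7.15% of all tested genes lower. In GFP cells 17 were lower at 48 h (3.08% of all) and 1, PCDHGA10, at 6 h (3.29%), while in ZMYND8 cells 5 were lower at 48 h (2.3%) and 1 at 6 h (2.05%). Between the lines 17 were lower at 6 h (6.6%) and 14 at 48 h (5.72%), and for the change of the gap 1 was higher (2.17%) and 1 lower (1.53%). In the transient system 11 of 18 tested members were lower with doxorubicin (3.34%), 10 in the labelled ZMYND8 libraries against control (4.13%) and 0 between the labelled libraries and doxorubicin (0.0956%). No member was higher by this criterion in any comparison of conditions.

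Protocadherins outside the clusters are related adhesion genes that do not share exons with the clusters. Of 12 such genes 6 were tested in the inducible system. At 48 h 3 were higher and 0 lower in GFP cells, beside 32.4% and 31.8% of all tested genes. In ZMYND8 cells 3 were higher and 1 lower at 48 h, beside 31.6% and 30.8%. In untreated ZMYND8 against GFP cells 2 were higher and 1 lower, beside 28.7% and 29.5% of all tested genes. PCDH9, a delta protocadherin, had a log2 difference of 2.76 (SE 0.319, adjusted p = 2.1e-08) with 48 h of doxorubicin in GFP cells and of 2.23 (SE 0.342, adjusted p = 2.7e-06) between the untreated lines. PCDH7 differed between the untreated lines by 1.99 (SE 0.214, adjusted p = 6.83e-09), and PCDH1, which lies downstream of the gamma cluster, by -0.54 (SE 0.125, adjusted p = 0.000478). In the transient system 4 were tested and 0 called in any comparison.

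Factors known to act on the clusters moved in both directions. Of 29 listed genes, ZMYND8 among them, 28 were tested, with 10 higher and 15 lower at 48 h in GFP cells, where 32.4% of all genes were called higher and 31.8% lower, and 17 higher and 4 lower in untreated ZMYND8 against GFP cells, where the shares were 28.7% and 29.5%. CTCF, which binds protocadherin promoters, had log2 fold changes of 0.31 (SE 0.0579, adjusted p = 4.08e-05) at 48 h in GFP cells and of -0.13 (SE 0.0605, adjusted p = 0.0719) between the untreated lines. STAG1, a cohesin subunit, was at -1.60 (SE 0.0641) and NIPBL, the cohesin loader, at -0.91 (SE 0.0513) at 48 h in GFP cells, whereas the cohesin ring genes SMC1A, at 1.09 (SE 0.0454), and SMC3, at 0.52 (SE 0.0378), were higher, all 4 called. SMCHD1, a repressor of the clusters, was at 0.64 (SE 0.0447, adjusted p = 1.27e-12) between the untreated lines, and the DNA methyltransferase gene DNMT3A at -0.67 (SE 0.119, adjusted p = 2.27e-05). Among 15 tested partners and effectors of protocadherin signalling, 0 rose and 12 fell at 48 h in GFP cells, and 9 were higher and 5 lower between the untreated lines, beside the same shares of all genes. The higher ones include WASF2 (0.92, SE 0.0414, adjusted p = 1.37e-16) and NCKAP1 (0.40, SE 0.0383, adjusted p = 9.29e-10), both of the WAVE complex. The lower ones include CYFIP2, a WAVE complex subunit (-3.36, SE 0.354, adjusted p = 4.45e-09), PTK2B, the kinase PYK2 (-1.66, SE 0.108, adjusted p = 2.68e-13), and CTNNB1, beta-catenin (-1.19, SE 0.0381, adjusted p = 7.68e-20). What the levels of these genes have to do with the members was not tested.

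Markers of other cell types were low and also differed between the lines. The summed level of 8 neuronal markers was 3.74 to 3.85 CPM in untreated GFP cells and 9.98 to 10.5 CPM in untreated ZMYND8 cells. Of the 8, 4 were below 1 CPM in every library. Between the untreated lines this sum was thus higher where the protocadherins were lower. At 6 h of doxorubicin it was 3.57 to 4.17 CPM in GFP and 6.75 to 6.99 CPM in ZMYND8 cells. The sum of all members was then at 67.2% and 75.9% of the same line untreated, so the inverse order did not hold within the lines at 6 h. Of 5 tested neuronal markers 2 were called higher and 0 lower between the untreated lines, and 3 were not called. The 4 stromal markers summed to 29.8 to 30.5 CPM against 11.5 to 13.6 CPM, the 3 endothelial markers to 6.06 to 6.29 against 1.28 to 1.53 CPM and the 4 immune markers, CD14 among them, to 19.0 to 20.2 against 2.28 to 2.51 CPM. The 6 epithelial markers summed to 1875 to 1902 CPM in untreated GFP and 1310 to 1360 CPM in untreated ZMYND8 cells. Between these lines 1 of them was called higher and 5 lower, beside 28.7% and 29.5% of all tested genes. The mesenchymal markers of this line summed to 7964 to 8078 CPM in untreated GFP and 5451 to 5799 CPM in untreated ZMYND8 cells. At 48 h they summed to 3609 to 3730 and 3613 to 3747 CPM. After 48 h of doxorubicin the neuronal markers summed to 5.85 to 6.35 CPM in GFP and 10.9 to 11.1 CPM in ZMYND8 cells. The part of these lists in the protocadherin differences was not tested.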

How the data were processed

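The files hold deposited counts, whole numbers of read pairs assigned to each gene and not normalized. The authors, per the file headers, counted with featureCounts 1.6.4 against GENCODE release 31, reverse-stranded and summed over exons, and pairs that overlap several genes or map to several places were left out. The submitters' processing notes name Trim Galore, HISAT2 and hg38, whereas the study's methods name TopHat. Conditions were taken from the sample labels.

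For each system edgeR 4.0.16 (R 4.3.3) was run with TMM scaling and 1 mean per condition, after its filter by expression (15697 genes transient, 18801 inducible). A gene was called where edgeR's quasi-likelihood test gave a Benjamini-Hochberg adjusted p of at most 0.05 over all genes tested, and the steps were tested on simulated data. Level is CPM on the TMM scale. An exact permutation test of 1 value, 2 libraries against 2, cannot go below p = 0.333. Count ratios have exact 95% intervals that cover counting error only. Gene types came from GENCODE by gene ID and promoters from RefSeq by symbol.

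The members, lists and tests were chosen with earlier results of these data known. Named members are the 3 of each cluster with the highest mean level, up to 5 called members with the largest fold change in each comparison, and the C-type genes. Members named beyond this rule in a comparison (such as PCDHB14, PCDHB2 and PCDHGA7 in the inducible system) and the named genes of the other lists were chosen after their values were seen. Alternatives covered normalization, filters, replicates left out, a replicate block, the samples fitted and DESeq2 1.42.0.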

Additional observations from a re-analysis of the deposited data

Results flagged for a closer look

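For 3 members the difference between ZMYND8 and GFP cells changed between the untreated state and 48 h of doxorubicin, by the test of that change itself. These are 2 higher and 1 lower of 26 tested members, beside 12.7% higher and 15.8% lower of all tested genes. For PCDHB9 the change was 1.36 on the log2 scale (SE 0.391, adjusted p = 0.00929). The gap was narrower at 48 h, as PCDHB9 fell in GFP cells (9.12 and 8.54 to 4.71 and 4.63 CPM) and gave 0.782 and 0.525 CPM without and 1.06 and 0.681 CPM with the drug in ZMYND8 cells. The adjusted p rose to 0.141 without the first ZMYND8 library at 48 h and to 0.0899 without the second untreated ZMYND8 library, and it was 0.0520 in DESeq2.

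For PCDHB11 the change was 1.14 (SE 0.368, adjusted p = 0.0205), with falls in both lines. Its adjusted p reached 0.0933 without the second GFP library at 48 h, and it was 0.0714 in DESeq2. For PCDHGB7 the change was -3.24 (SE 1.21, adjusted p = 0.0459) on 1 and 0 counts in ZMYND8 cells at 48 h. It was -5.37 without the first of these libraries and -2.43 without the second. The calls of all 3 members depended on the first ZMYND8 library at 48 h. DESeq2 gave no adjusted p for PCDHGB7. The cause of these changes was not tested.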

How the results depend on the processing

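Among the members named by the rule, none that was called in a comparison changed direction in it under any alternative. Of their fitted values that were not called, 60 changed sign. These include PCDHGC5 in GFP cells at 48 h and PCDHGC3 at 6 h with 1 library left out. The direction of the other members was not checked. The number of members called stayed within 1.5 times its value in 173 of 213 settings and moved in 40. By the study's criterion it was 11 for transient doxorubicin, 10 for the labelled ZMYND8 libraries against control, 1 for GFP cells at 6 h, 1 for ZMYND8 cells at 6 h and 5 at 48 h. With a fold limit of 1 beside the adjusted p it was 5 for GFP and 1 for ZMYND8 cells at 6 h. With no filter on low counts transient doxorubicin had 5. With at least 10 counts in every library, which left 8 members, it was 6 (GFP, 6 h), 8 (GFP, 48 h), 6 (ZMYND8, 48 h), 8, 8 and 7 (between the lines at 0, 6 and 48 h) and 1 (change of the gap). DESeq2 called 4 (GFP, 6 h), 1 (ZMYND8, 6 h) and 0 (change of the gap). For ZMYND8 cells at 6 h, scaling by library totals gave 5 and fitting only the conditions compared gave 0. With library totals the median over all genes, on the log2 scale, was 0.27 in place of 0.03 (GFP, 48 h) and 0.25 in place of 0.05 (ZMYND8, 48 h).

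With 1 library left out the counts ranged from 6 to 13 (GFP, 6 h), 19 to 24 (GFP, 48 h), 0 to 3 (ZMYND8, 6 h), 9 to 13 (ZMYND8, 48 h), 20 to 23, 15 to 20 and 13 to 17 (between the lines at 0, 6 and 48 h), 1 to 3 (change of the gap), 0 to 2 (transient doxorubicin), 0 to 6 (labelled against control) and 0 to 0 (labelled against doxorubicin), the lone library being assumed to vary like the other conditions. Same-numbered libraries are not known to be paired, and their deviations correlated by 0.208 to 0.404 over 3 transient and by -0.0458 to 0.0216 over 15 inducible pairs of conditions. With a replicate block the counts were 8 (transient doxorubicin), 9 (labelled against control), 0 (labelled against doxorubicin), 12 and 22 (GFP), 3 and 12 (ZMYND8), 23, 20 and 17 (between the lines) and 3 (change of the gap). The block also raised the calls among all 15697 genes, from 805 to 2410 for transient doxorubicin and from 1071 to 2795 for labelled against control. Members held 365 to 1664 counts in a transient and 312 to 2715 in an inducible library, and the common biological coefficient of variation was 0.191 and 0.0368. Depth limits the alpha genes in both systems.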
